A study of Rattus norvegicus with 11 samples.

Results

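The 9 calcium/calmodulin-dependent kinase genes on the array were examined in the medial prefrontal cortex (mPFC) of heroin self-administering and yoked saline rats. They were found by symbol among the non-control probes, as Camkk1, Camkk2, Camk1, Camk1g, Camk4, Camk2a, Camk2b, Camk2d and Camk2g. Together they had 14 of the 41012 probes and 23 of the 43379 spots, because 4 genes had more than 1 probe and 1 Camk2a probe was printed as 10 spots. RNA came from 6 heroin rats and 5 saline rats, all males of 4 months, each on its own single-colour array. Heroin rats had earned intravenous infusions by licking a spout, and saline rats were a separate drug-naive set that received saline whenever their partner received heroin. Both groups spent 14 days in abstinence and were killed after an extinction session without drug, so the state before that session was not measured. The labels name no strain or allele, and the tissue was bulk cortex medial to the forceps minor.

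Calcium entering an active neuron binds calmodulin, and the complex opens these kinases by displacing an autoinhibitory segment from the active site. CaMKK1 and CaMKK2 are upstream kinases that phosphorylate the activation loop of CaMKI and CaMKIV, and CaMKIV in the nucleus phosphorylates CREB. CaMKII works apart from that cascade as a multimeric holoenzyme of alpha, beta, gamma and delta subunits, phosphorylates itself in trans and thereby stays active after calcium has fallen. Its alpha and beta subunits dominate in forebrain neurons and are best known for synaptic plasticity at glutamatergic synapses.

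What a probe measured depended on where in the transcript it lay, so 5 coding probes are shown (rn3 positions per the array files, each sequence 5′ to 3′). Probes whose genomic span exceeded their 60 bases crossed an intron and are called junction probes. Those lying in 1 block are called single-exon probes. The first pair comes from Camk1 and Camk1g and is shown because it covers the same stretch of the kinase domain in paralogs, with the longest run that they share in capitals. Over their best alignment 22 of 31 bases were the same, the closest match among the CaM kinase probes.
Camk1 single-exon probe, chr4:149466315-149466374, minus strand: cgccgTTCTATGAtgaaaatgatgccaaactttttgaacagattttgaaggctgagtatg
Camk1g junction probe, chr13:109386638-109388321, minus strand: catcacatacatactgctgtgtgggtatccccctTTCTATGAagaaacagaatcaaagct
The next pair comes from Camk2b. The array design assigns the junction probe to 3 RefSeq records of the gene and the other probe to 1 record, transcript variant 1.
Camk2b junction probe, chr14:86664377-86664592, minus strand: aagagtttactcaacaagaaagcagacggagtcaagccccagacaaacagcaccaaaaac
Camk2b variant 1 probe, chr14:86659756-86659815, minus strand: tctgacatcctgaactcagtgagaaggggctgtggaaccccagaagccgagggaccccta
The last is the Camk2d junction probe, which the design assigns to a record of the delta B splice form.
Camk2d junction probe, chr2:224043690-224051015, plus strand: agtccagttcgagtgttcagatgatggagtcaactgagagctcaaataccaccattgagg

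Signals are given as multiples of the median over non-control probes of the same array (array medians), and changes as heroin minus saline on the log2 scale. A probe was tested where at least 0.5 of its spots were scored well above background on all 11 arrays. For 12 of the 14 CaM kinase probes this held, so all 9 genes had a tested probe. The other 2, for Camk2b and Camk2d, are described with their genes.

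All 12 tested probes had a higher mean in heroin rats, but none passed the thresholds used in the study, an unadjusted p under 0.02 together with at least 1.4-fold. Over the array, 694 of 25555 tested probes passed (2.72%), 457 higher (1.79%) and 237 lower (0.927%) in heroin. No CaM kinase probe and no probe of the array (0%) had a Benjamini-Hochberg adjusted p under 0.05 in limma, and the adjusted p of the 12 ranged from 0.263 to 0.686. At an unadjusted p under 0.05 there were 4 CaM kinase probes, for Camkk1, Camk1 and both Camk1g probes, beside 18.5% of all tested probes. The methods' t-test also called 0 of the 12, beside 308 of 25555 over the array. By that test 3 of the 12 had an unadjusted p under 0.05, beside 4127 of 25555 over the array.

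The common direction of the 12 was shared with the array. Of all tested probes, 78.7% had a positive change, and the median change was 0.28 for the CaM kinases against 0.18 for all. After quantile normalization, which gives every array the same distribution of signals, 53.2% of all tested probes had a positive change and 9 of the 12 CaM kinase probes did. The median was then 0.11 for the CaM kinases against 0.01 for all. In limma 0 of the 12 then had an unadjusted p under 0.05, beside 1971 of 25555 over the array. Their adjusted p lay between 0.712 and 0.998. The split of calls over the array moved with the scaling too, from 457 higher and 237 lower to 218 and 239 after quantile normalization, 33 and 746 after division by the 75th percentile, and 42 and 633 after division by the median of the detected probes. Every saline array lay at position 3 of its slide and every heroin array at position 4, so slide position and treatment cannot be told apart. With 1 array per rat, the p-values cover the spread between rats together with the error of labelling and hybridisation. The main fit did not pair arrays.

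**Figure D1:**
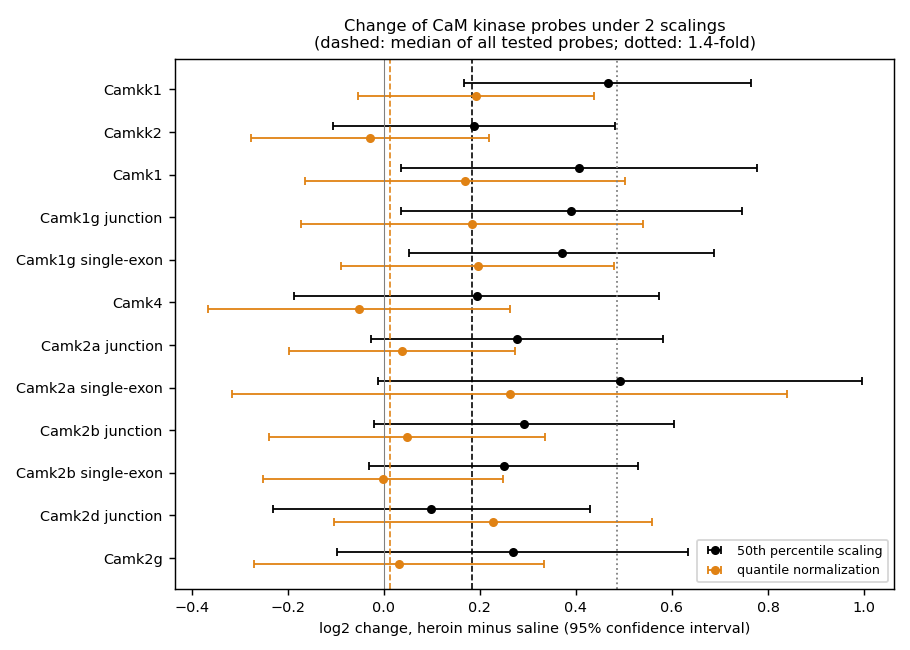
Log2 change, heroin minus saline, of the 12 tested CaM kinase probes with 95% confidence intervals, after scaling to the 50th percentile (black) and after quantile normalization (orange). Dashed lines mark the median change of all tested probes (0.18 and 0.01), the dotted line marks 1.4-fold, and every orange interval includes 0.

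Camkk1, the alpha isoform of the upstream kinase, had a signal of 75.8, 63.7, 79.9, 64.0 and 71.3 array medians in heroin rats 1, 2, 3, 4 and 6, and of 45.1, 59.8, 55.5, 54.9 and 42.5 in saline rats 2 to 6. Every heroin value lay above every saline value. Groups that did not overlap were found for 1.78% of all tested probes. Separation by chance is easier with 5 usable arrays per group than with all arrays, so this share is not a matched background. A share among probes with 5 usable arrays per group was not taken. The mean was 70.9 ± 7.16 (SD, n = 5) in heroin and 51.6 ± 7.37 (SD, n = 5) in saline rats, a log2 change of 0.47 (SE 0.14, 95% confidence interval 0.17 to 0.76) or 1.38-fold. This was just under the 1.4-fold threshold, with an unadjusted limma p of 0.00481 and an adjusted p of 0.263. The exact permutation test over 252 divisions of the rats gave p = 0.00794 (two-sided), the smallest it can give. The probe lies at chr10:59945165-59945224 on the plus strand.

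Heroin rat 5 had no usable Camkk1 value because the scanner software had marked its spot as non-uniform. That spot read 78.0 array medians, within the range of the other heroin rats. With marked spots kept the change was 0.49, which passed both thresholds (limma p = 0.00191, adjusted p = 0.263), and the exact permutation p with 6 against 5 rats was 0.00216, again the smallest possible. With marked spots left out, both thresholds were also passed without heroin rat 2 (0.50), heroin rat 4 (0.50), saline rat 3 (0.52), saline rat 4 (0.50) or saline rat 5 (0.49), and the change ranged from 0.40 to 0.52 over the rats left out in turn. After quantile normalization it was 0.19 (interval -0.05 to 0.44) and the groups overlapped.

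Camkk2, the beta isoform, ranged from 4.90 to 5.99 array medians (median 5.48) in heroin rats and read 4.13, 5.56, 5.58, 5.26 and 3.75 in saline rats 2 to 6. Both groups covered much of the same range, with 3 of the 6 heroin rats above the highest saline rat. The change was 0.19 (SE 0.14, interval -0.11 to 0.48, limma adjusted p = 0.397), close to the median of the array, and was -0.029 after quantile normalization. Without saline rat 6 it was 0.099. The junction probe lies at chr12:34793852-34798245 on the plus strand. The difference in change between the paralogs Camkk1 and Camkk2 was not tested.

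**Figure D2:**
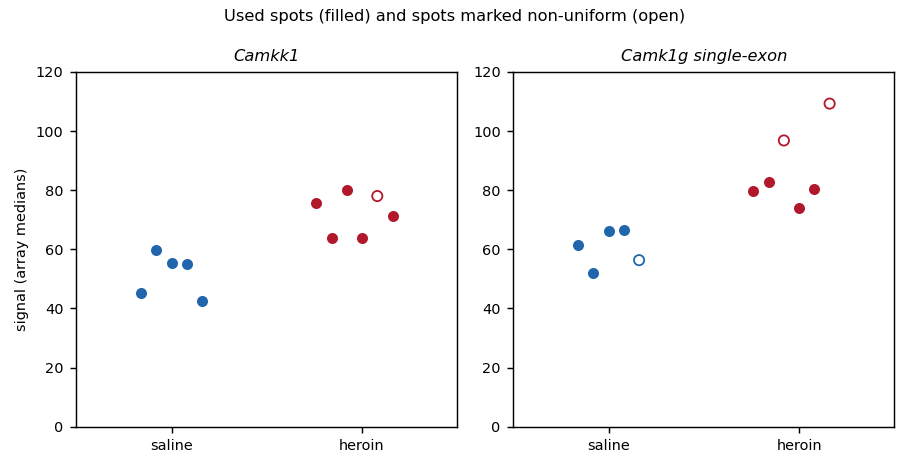
Signal of the Camkk1 probe and the Camk1g single-exon probe by rat, in array medians, with filled points for the spots used and open points for spots marked non-uniform and left out. All heroin points lie above all saline points in both panels, whether or not the open points are counted.

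Camk1, a cytosolic kinase activated by the CaMKKs, read 10.1, 10.9, 11.4, 10.2, 12.01 and 7.78 array medians in heroin rats 1 to 6 and 7.50, 5.47, 7.84, 11.4 and 7.65 in saline rats 2 to 6. The groups overlapped through 2 rats, since heroin rat 6 lay among the saline rats and saline rat 5 among the heroin rats. Means were 10.4 ± 1.46 (SD, n = 6) and 7.98 ± 2.16 (SD, n = 5). The change was 0.41 (SE 0.17, interval 0.04 to 0.78) or 1.33-fold, with a limma p of 0.0335, an adjusted p of 0.263 and an exact permutation p of 0.0541. It passed both thresholds without heroin rat 6 (0.49) or without saline rat 5 (0.55), fell short of them without any other rat, and ranged from 0.28 (without saline rat 3) to 0.55. It was 0.17 after quantile normalization (interval -0.16 to 0.50).

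Camk1g encodes CaMKI gamma, a lipid-modified, membrane-bound form of CaMKI in neurons, and had a probe at each of 2 places in its transcript. The junction probe ranged from 3.40 to 6.08 array medians (median 4.81) in heroin rats and read 4.41, 2.74, 3.41, 4.27 and 3.24 in saline rats 2 to 6. Of the 6 heroin rats, 4 lay above the highest saline rat. The change was 0.39 (SE 0.17, interval 0.03 to 0.75, limma p = 0.0336, adjusted p = 0.263, exact permutation p = 0.0519), and 0.18 after quantile normalization.

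The Camk1g single-exon probe (chr13:109381970-109382029, minus strand) had usable spots on 4 arrays of each group. It read 79.7, 82.7, 74.0 and 80.6 array medians in heroin rats 1, 2, 4 and 5. Saline rats 2 to 5 read 61.5, 52.0, 66.1 and 66.4, with no overlap. Separate groups are easier to reach by chance with 4 arrays of each group than with all arrays. With all arrays the smallest possible exact permutation p was 0.00216. The share of 1.78% without overlap covers all tested probes, so it is no background for this probe. A share among probes with as few usable arrays was not taken. The change was 0.37 (SE 0.15, interval 0.05 to 0.69), close to that of the junction probe, with a limma p of 0.0257, an adjusted p of 0.263 and an exact permutation p of 0.0286, the smallest that 70 divisions allow.

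The marked spots of this probe read 96.8 in heroin rat 3, 109 in heroin rat 6 and 56.3 in saline rat 6. With them kept the groups still did not overlap, the change was 0.52 and both thresholds were passed (limma p = 0.00143, adjusted p = 0.263, exact permutation p = 0.00216). The call therefore turned on spots that the software had marked. After quantile normalization, with marked spots left out, the change was 0.20 (interval -0.09 to 0.48) and the groups overlapped.

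Camk4, the nuclear kinase that acts on CREB, ranged from 12.8 to 22.4 array medians (median 22.0) in heroin rats and read 16.4, 17.3, 21.8, 17.5 and 12.7 in saline rats 2 to 6. Heroin rats 2 and 5 lay within the saline range, and the other 4 lay just above it, between 21.8 and 22.4. The change was 0.19 (SE 0.18, interval -0.19 to 0.57, limma adjusted p = 0.491), and was -0.052 after quantile normalization and -0.024 after division by the 75th percentile. Single rats moved it, to 0.091 without saline rat 6 and to 0.31 without heroin rat 5. The probe lies at chr18:25652161-25652220 on the plus strand.

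**Figure D3:**
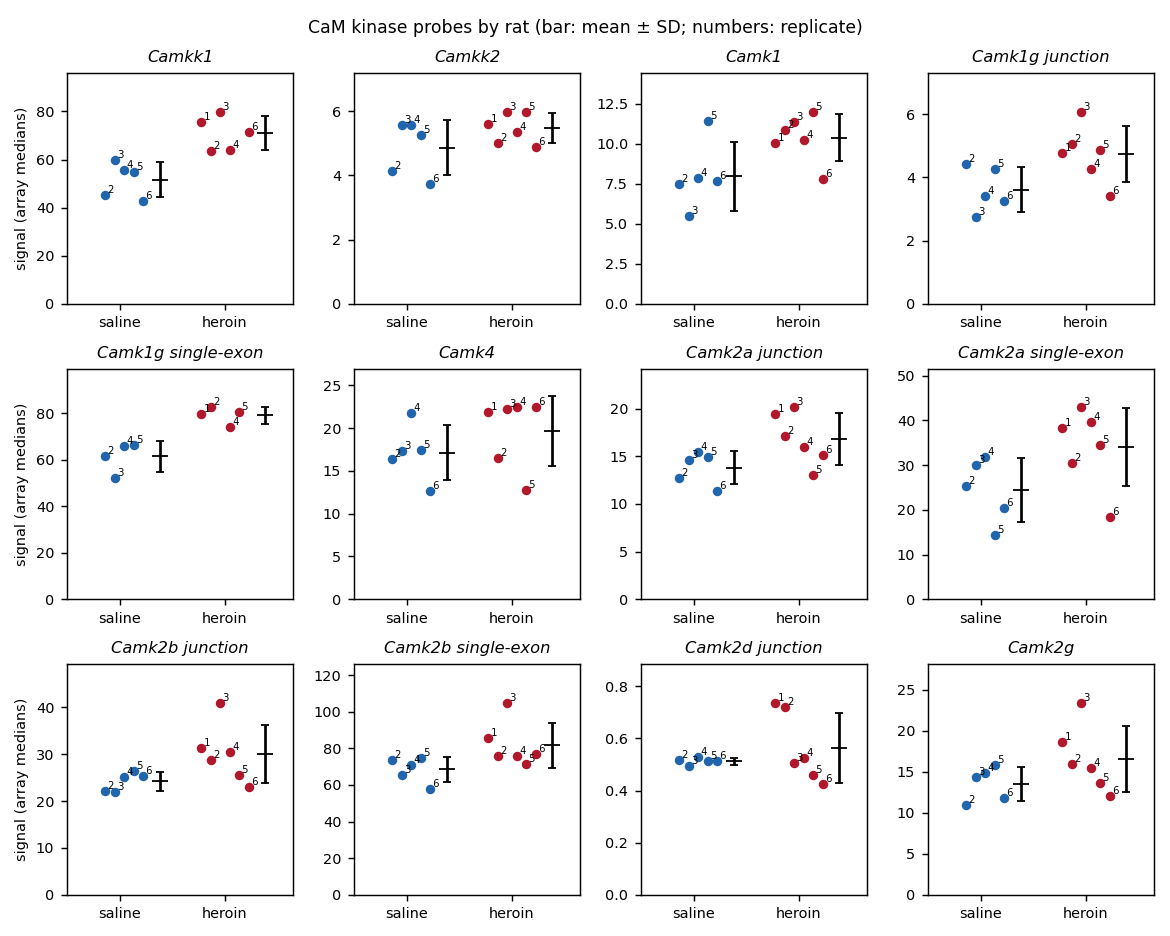
Signal of the 12 tested CaM kinase probes in each rat, in array medians on linear axes that start at 0, with blue points for saline, red points for heroin and the replicate number beside each point. Bars give the mean ± SD of 6 heroin and 5 saline rats (5 heroin rats for Camkk1, 4 of each group for the Camk1g single-exon probe), and the groups are separate only for those 2 probes.

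Camk2a, the alpha subunit that is abundant in forebrain excitatory neurons, had the largest change of the 12 probes and also the largest error. Its single-exon probe (chr18:57023052-57023111, plus strand), which the array design assigns to the 3′ untranslated region, read 38.4, 30.5, 43.0, 39.7, 34.5 and 18.5 array medians in heroin rats 1 to 6. Saline rats 2 to 6 read 25.4, 29.96, 31.8, 14.4 and 20.3. Heroin rats 2 and 6 lay within the saline range and the other 4 above it. Means were 34.1 ± 8.77 (SD, n = 6) and 24.4 ± 7.14 (SD, n = 5), a change of 0.49 (SE 0.24, interval -0.013 to 0.995) or 1.41-fold. It was the 1 CaM kinase probe to reach 1.4-fold, with a limma p of 0.0553, an adjusted p of 0.273 and an exact permutation p of 0.110.

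The 10 spots of this probe gave the spot-to-spot error. Within an array their SD was between 0.0243 and 0.0638 on the log2 scale. The SD between arrays was 0.44 in the heroin and 0.47 in the saline group, and with 1 array per rat it holds both the spread between rats and the error of labelling and hybridisation, which cannot be told apart. Heroin rat 6 and saline rat 5, the lowest of their groups, were low in every spot. Without heroin rat 6 the change was 0.66 and passed both thresholds. Without saline rat 5 it was 0.31, the lowest value over the rats left out in turn, and after quantile normalization it was 0.26 (interval -0.32 to 0.84).

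**Figure D4:**
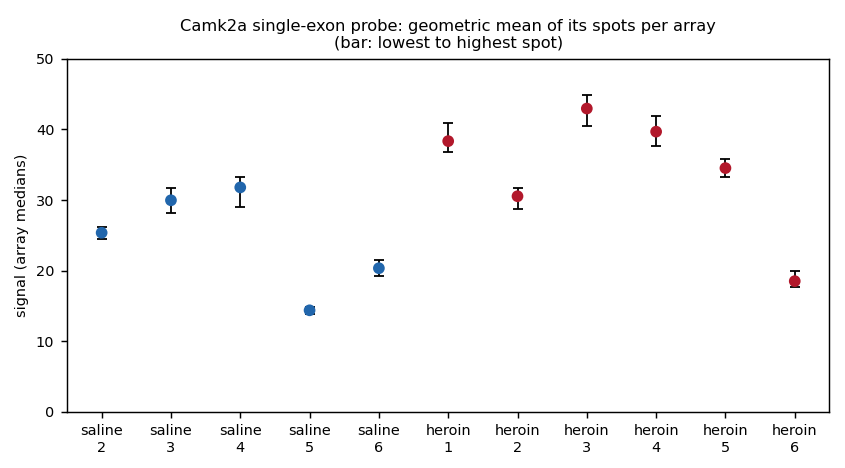
Geometric mean signal of the 10-spot Camk2a probe on each array, in array medians, with bars from its lowest to its highest spot. The bars show spot-to-spot error alone and are short beside the distance between arrays (1 per rat), and saline rat 5 (14.4) and heroin rat 6 (18.5) are the lowest of their groups.

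The Camk2a junction probe (chr18:56976633-56990498, plus strand) gave a smaller change of 0.28 (SE 0.14, interval -0.03 to 0.58, limma adjusted p = 0.284, exact permutation p = 0.0628). Heroin rats ranged from 13.0 to 20.2 array medians (median 16.6) and saline rats read 12.7, 14.6, 15.4, 14.96 and 11.3. Saline rat 5, the lowest saline rat on the single-exon probe, was not low on this one. After quantile normalization the change was 0.038. The difference between both Camk2a probes was not tested.

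Camk2b, the beta subunit that binds actin and holds CaMKII in dendritic spines, had 3 probes. The junction probe ranged from 23.0 to 41.0 array medians (median 29.6) in heroin rats and read 22.1, 22.0, 25.1, 26.4 and 25.4 in saline rats. The change was 0.29 (SE 0.15, interval -0.02 to 0.60, limma adjusted p = 0.279, exact permutation p = 0.0519). The single-exon probe (chr14:86652309-86652368, minus strand), also assigned to 3 RefSeq records, ranged from 71.5 to 105 (median 76.4) in heroin rats and read 73.4, 65.3, 71.1, 74.6 and 57.8 in saline rats. Its change was 0.25 (SE 0.13, interval -0.03 to 0.53, limma adjusted p = 0.291, exact permutation p = 0.0238), with 5 of the 6 heroin rats above the highest saline rat. Heroin rat 3 was the highest rat on both probes. After quantile normalization the changes were 0.048 and -0.0011, the second reversed in sign.

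The Camk2b variant 1 probe was well above background in 3 of the 6 heroin rats and 4 of the 5 saline rats and was not tested. Heroin rats read 0.278 ± 0.125 array medians (SD, n = 6) and saline rats 0.374 ± 0.136 (SD, n = 5), at 1.14 times the lowest signal scored well above background. A difference was not detectable at this signal.

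Camk2d, the delta subunit best known from heart and smooth muscle, was dim on both of its probes. Its level over all splice forms was not measured. The junction probe of the delta B form ranged from 0.423 to 0.737 array medians (median 0.515) in heroin rats and read 0.516, 0.492, 0.529, 0.514 and 0.512 in saline rats, at 2.06 times the lowest signal scored well above background. Saline rats lay close together, heroin rats 1 and 2 lay above them, and heroin rats 5 and 6 below them. The change was 0.10 (SE 0.15, interval -0.23 to 0.43, limma adjusted p = 0.686), the smallest of the 12, and its sign depended on the scaling. It was 0.23 after quantile normalization, -0.12 after division by the 75th percentile and -0.092 after division by the median of the detected probes. Single heroin rats moved it too, to 0.014 without rat 1, 0.021 without rat 2, 0.15 without rat 5 and 0.17 without rat 6. The second Camk2d probe (chr2:224097630-224097689) was well above background in 0 of the 6 heroin rats and 1 of the 5 saline rats, and was not tested.

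Camk2g, the gamma subunit that carries calmodulin from the synapse to the nucleus in neurons, ranged from 11.99 to 23.4 array medians (median 15.7) in heroin rats and read 10.9, 14.3, 14.8, 15.8 and 11.8 in saline rats. The groups overlapped, with 3 of the 6 heroin rats above the highest saline rat. The change was 0.27 (SE 0.17, interval -0.10 to 0.63, limma adjusted p = 0.348), and 0.031 after quantile normalization. Without heroin rat 3 it was 0.16. The junction probe lies at chr15:3783656-3785221 on the plus strand.

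Arrays with the same replicate number shared a scan, so heroin minus saline was also taken within each of the 5 scans. In the scans of replicates 2 and 3 every tested CaM kinase probe with a value was higher in the heroin rat (12 of 12 and 11 of 11), with median differences of 0.40 and 0.52. Of all tested probes 75.2% and 73.7% were higher there, with medians of 0.27 and 0.28. In the scans of replicates 4, 5 and 6 it was 10 of 12, 5 of 11 and 8 of 11 CaM kinase probes (medians 0.13, -0.042 and 0.066), beside 68.1%, 35.8% and 65.1% of all tested probes (medians 0.12, -0.10 and 0.22). After quantile normalization the counts for the CaM kinases were 6 of 12, 9 of 11, 7 of 12, 7 of 11 and 5 of 11 in the scans of replicates 2 to 6, beside 47.3% to 53.0% of all tested probes. Camkk1 was higher in the heroin rat in 4 of the 4 scans that had a value, by 0.21 to 0.74. That count follows from its groups not overlapping and adds nothing to it. After quantile normalization, when its groups overlapped, Camkk1 was higher in 4 of 4. Camk1 and the Camk1g junction probe were higher in 5 of 5 scans, by 0.025 to 1.05 and by 0.066 to 1.15, but in 4 of 5 and 3 of 5 after quantile normalization. In the scan of replicates 5, 5 of the 6 negative differences belonged to probes of CaMKII subunits and the other to Camk4. CaMKII subunits were also most of the 11 probes with a value. The Camk2a junction probe gave -0.20 while the Camk2a single-exon probe gave 1.26. After quantile normalization both Camk2b probes turned positive there (0.13 and 0.078), while the Camk2a junction, Camk2d, Camk2g and Camk4 probes stayed negative.

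**Figure D5:**
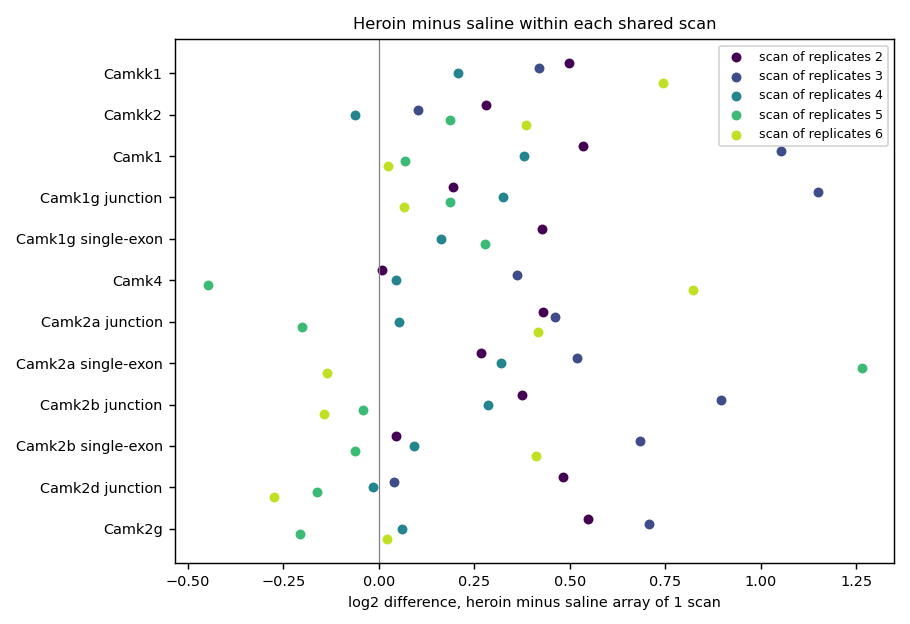
Log2 difference between the heroin and the saline array of the same scan, 1 point per scan for each of the 12 tested CaM kinase probes, after scaling to the 50th percentile and with fewer points where a marked spot left no value. Points of the scans of replicates 2 and 3 all lie above 0 under this scaling (after quantile normalization 6 of 12 and 9 of 11 do), and those of replicates 5 and 6 lie on both sides.

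The genes around the kinases were taken from a list of 32 calmodulins, inhibitors, related kinases, phosphatases and substrates, of which 26 were tested with 37 probes. None of the 37 passed both thresholds, 30 were higher and 7 lower in heroin rats beside 78.7% higher over the array, and 7 had an unadjusted p under 0.05 beside 18.5% over the array, so these shares were near those of all tested probes. Their median change was 0.21 (0.18 over the array), and 0.061 after quantile normalization (0.013 over the array), when 24 were higher. All 5 probes of the 3 calmodulin genes, which encode 1 identical protein, were higher. The largest change was 0.34 (SE 0.17) for Calm3, and 0.10 after quantile normalization. Among the CaMKII inhibitors, Camk2n1 gave 0.40 (SE 0.19) on a dim probe, with means of 1.06 array medians in heroin and 0.79 in saline rats. Its bright probe (639 and 529) gave 0.27 (SE 0.14). After quantile normalization the dim probe gave 0.44 and the bright probe 0.014. Gap43, a growth cone protein that binds calmodulin, gave 0.41 (SE 0.18), and 0.17 after quantile normalization. Eef2k, the elongation factor kinase, gave 0.46 (SE 0.18) on a dim probe (means of 1.32 in heroin and 0.97 in saline rats). Its brighter probe (12.7 and 11.2) gave 0.20 (SE 0.17). After quantile normalization the dim probe gave 0.47 and the brighter probe -0.039. Ppp3cc, a catalytic subunit of calcineurin, gave 0.35 (SE 0.12), and 0.17 after quantile normalization. The only negative change among the genes with the largest change of each role was -0.22 (SE 0.17) for Ppm1f. Ppm1f, a phosphatase that removes the activating phosphates of CaM kinases, gave -0.30 after quantile normalization. For the substrates the largest change was 0.33 (SE 0.21) for Hdac5, a histone deacetylase that CaM kinases drive out of the nucleus. That probe was dim (means of 1.18 in heroin and 0.96 in saline rats) and gave 0.37 after quantile normalization. The brightest Hdac5 probe (31.5 and 24.9) gave 0.32 (SE 0.16), and 0.075 after quantile normalization.

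In bulk cortex, fewer cells of a type and less RNA per cell cannot be told apart. Of the markers of excitatory neurons, the glutamate transporter Slc17a7 was the only 1 of 4 with a probe and gave 0.31 (SE 0.20), and 0.15 after quantile normalization. Its signal ran from 1.81 to 4.29 array medians in heroin and from 1.75 to 2.44 in saline rats. The interneuron list had 8 of 8 probes higher (median 0.20, 4 of 8 higher after quantile normalization), and its summed level ran from 352 to 459 array medians in heroin and from 277 to 383 in saline rats. Of these, Vip passed both thresholds (0.49, SE 0.13, limma adjusted p = 0.263), but at 0.25 after quantile normalization it no longer reached 1.4-fold. The astrocyte list had 6 of 6 probes higher (median 0.21, and 0.032 with 4 of 6 higher after quantile normalization, summed level 310 to 425 in heroin and 262 to 396 in saline rats). The oligodendrocyte list had 3 of 8 higher (median -0.01, and -0.25 with 0 of 8 higher after quantile normalization), with a summed level of 75.9 to 269 in heroin and 82.7 to 256 in saline rats. The striatal list, for tissue beside the dissected cortex, had 1 of 5 higher (median -0.15, and -0.26 with 0 of 5 higher after quantile normalization), with a summed level of 8.04 to 11.6 and 8.21 to 22.6, and Drd2 was not well above background on every array. Of the microglial, endothelial and blood lists, 4 of 5, 2 of 3 and 1 of 2 probes were higher (medians 0.16, 0.023 and 0.11), and 2 of 5, 0 of 3 and 1 of 2 after quantile normalization, when all 3 medians were negative (-0.091, -0.20 and -0.10). The part of these cell types in the CaM kinase values was not tested.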

How the data were processed

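For each rat the authors hybridised Cy3-labelled cRNA to 1 Agilent whole rat genome array and deposited Feature Extraction output (version 9.5.1.1 per the file headers), with a background-corrected signal intensity per spot and no scaling between arrays. Flags for marked spots and for detection were taken from other columns deposited beside the intensity. A second deposited table, a ratio of each rat to the median of the probe, served as an alternative. It held 9 of the 12 tested CaM kinase probes. Camkk1 and the single-exon probes of Camk1g and Camk2b were not in it, so it says nothing about them. The study's methods give 12 arrays, and 11 were analysed here.

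Controls were dropped, as were spots marked non-uniform or outlying (99 to 231 on an array). Intensities were floored at 5, scaled to the 50th percentile of the array, converted to log2 and averaged over the spots of a probe. Tested probes were well above background on all 11 arrays with usable spots on at least 2 arrays of each group (25555 of 41012). Groups were compared with limma 3.58.1 (lmFit, eBayes, two-sided) in R 4.3.3, with Benjamini-Hochberg adjustment over all tested probes. The thresholds were an unadjusted p under 0.02 and at least 1.4-fold. Single probes were also tested by exact permutation over rats. Tables were made with Python 3.11.15. The fits were tested on simulated data. The number of arrays limits the precision.

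Median signal per array was 42.7 to 78.3 in heroin and 58.0 to 83.2 in saline rats. Heroin rat 6 had the lowest median and the lowest mean correlation with its own group, 0.968. Replicate numbers paired arrays because, per the file headers, same-numbered arrays shared a scan time. The correlations of their deviations from the group means were 0.38, -0.13, 0.35, 0.02 and -0.24 for replicates 2 to 6. Heroin replicate 1 had no saline array of the same number. A shared number and scan time do not show which rats were yoked to each other.

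All members and probes are named. Of the surrounding genes, those past the thresholds and the 1 with the largest absolute change in each role are named. The members and lists were chosen with earlier results of these data known. Alternatives were other scalings, normexp background, detection filters, marked spots kept, limma options, the unequal-variance t-test, array weights, blocks and leaving out each rat.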

Additional observations from a re-analysis of the deposited data

How the results depend on the processing

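Of 318 values of single CaM kinase probes under alternatives, 294 kept their direction and side of the thresholds, 13 newly passed and 11 changed sign. Size was not counted, so Camkk1 at 0.19 after quantile normalization, against 0.47, counts as kept. Many alternatives, such as leaving out 1 rat, shared most of the data with the main fit. All 11 sign changes came with a change of scaling. By division by the 75th percentile Camkk2 became -0.030, Camk4 -0.024 and Camk2d -0.12. By quantile normalization Camkk2 became -0.029, Camk4 -0.052 and the Camk2b single-exon probe -0.0011. By the median of detected probes Camkk2 became -0.00315 and Camk2d -0.092. The replicate block pairs arrays of 1 scan. It called 0 CaM kinase probes (0.47 for Camkk1) and 805 over the array. The block with quantile normalization, chosen after seeing the data, gave -0.027 for Camkk2, -0.079 for Camk4, -0.00963 for the Camk2b single-exon probe and 410 probes called over the array. It called no CaM kinase probe either. CaM kinase probes called, 0 in the report, became 2 with marked spots kept (Camkk1, Camk1g single-exon), beside 687 of 25587 over the array. They became 3 with array weights (Camk1 0.59, Camk1g junction 0.56, Camk2a single-exon 0.50), beside 2380 of 25555 over the array. These weights were least for heroin rat 6 (0.26) and saline rat 5 (0.34). With array weights, 3 pathway probes were called. Leaving out each rat in turn gave 0 to 2 CaM kinase probes, 0 to 2 pathway probes and 343 (without saline rat 2) to 2352 (without saline rat 5) probes over the array. It was 393 without saline rat 3. The median change of the CaM kinases was 0.066 by the 75th percentile, against -0.034 for all tested probes. Probes called over the array numbered 457 by quantile normalization, 126 by normexp, 1560 with no filter and 1067 with detection in 1 group. They numbered 308 by the unequal-variance t-test and 2380 with array weights. With those weights 7862 of 25555 tested probes had a limma adjusted p under 0.05 without regard to fold. So did every tested CaM kinase probe (0.0203 for Camk1 to 0.0490 for Camk2g) except those of Camkk2, Camk2d and Camk4 (0.116 to 0.239). Unfiltered, the Camk2b variant 1 probe gave -0.47 and the second Camk2d probe -0.05. The causes were not tested.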

Other observations

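The probes whose signal followed the 10-spot Camk2a probe most closely over the 11 rats, by mean absolute difference in log2 signal after each probe was centred, belonged to Stx1b2 (0.107), Lasp1 (0.126), Gpr27 (0.185), Id2 (0.190) and Mesdc1 (0.193). The median over all tested probes was 0.413. Camk2a probes were left out of this ranking. The centring was over all 11 rats, so heroin minus saline differences were part of the measure. Changes like that of the Camk2a probe therefore follow from how these probes were chosen. Stx1b2, a syntaxin of the synaptic vesicle release machinery, gave a change of 0.43 (SE 0.22, limma adjusted p = 0.299), and Lasp1, an actin-binding protein, gave 0.35 (SE 0.24, limma adjusted p = 0.391).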
